A study of Mus musculus with 46 samples.

Results

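Lonp1, Clpp, Clpx, Hspd1, Hspe1, Hspa9, Dnaja3, Yme1l1, Afg3l2 and Spg7 are nuclear genes for proteases and chaperones that work inside mitochondria. These 10 genes were chosen by name, with earlier results of these data known. Their called shares beside those of all genes are therefore descriptions and test no enrichment. Each was found at 1 identifier among the 55487 genes listed for every library. They were followed through 46 mouse RNA-seq libraries from 3 experiments. The first held islets labelled Tfam control (5 female and 3 male libraries) or Tfam KO (4 female and 2 male). The second held islets labelled Clec16a control (4 libraries on a diet labelled RFD and 6 on a diet labelled HFD) or Clec16a KO (4 on RFD and 5 on HFD). The third held livers labelled control (6 libraries), Mfn DKO (4) or Tfam KO (3), and the descriptions of all of these livers, controls included, carry the letters AAV. Tfam packages mitochondrial DNA and takes part in starting its transcription. Clec16a takes part in the clearance of mitochondria, and the mitofusins Mfn1 and Mfn2 join mitochondrial outer membranes. The series title places the study in signalling from mitochondria to the nucleus. The labels give neither the driver of the deletions, nor the floxed alleles or virus that the controls carried, nor strain, age or, outside the Tfam islets, sex. They also do not say whether replicates came from separate animals, so p-values measure the spread between these libraries, which may be technical.

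Most mitochondrial proteins are made in the cytosol, threaded through the membranes unfolded, and folded or destroyed inside. Hspa9, the matrix HSP70 also called mortalin, pulls in and folds incoming chains with the help of its J-domain partner Dnaja3. The ring of Hspd1 (HSP60), closed by its lid Hspe1 (HSP10), folds matrix proteins. Lonp1 degrades damaged matrix proteins, and Clpx unfolds substrates that the Clpp chamber then cuts. In the inner membrane, Yme1l1 faces the intermembrane space, while Afg3l2 and its partner Spg7 (paraplegin) form the protease that faces the matrix. Transcription of several of these genes is known to rise in the mitochondrial unfolded protein response.

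Library totals spanned 55223041 to 83342809 counts for Tfam islets, 16235173 to 55810879 for Clec16a islets and 41961114 to 56894510 for livers, and no member had fewer than 152 counts in any library. Levels below are CPM, counts divided by a library size scaled by TMM, unless TPM, which divides by transcript length, is named. Tfam itself lay at 16.0 to 18.9 CPM in Tfam KO islets against 37.8 to 44.7 in their controls, and at 13.1 to 15.9 against 54.2 to 66.2 in livers. Mfn1 lay at 15.6 to 25.4 CPM in Mfn DKO livers against 67.8 to 88.3 in controls, and Mfn2 at 32.3 to 45.1 against 113 to 191. The transcript of Clec16a lay at 23.4 to 32.9 CPM in libraries labelled Clec16a KO, no lower than the 20.9 to 31.8 CPM of their controls, so its level does not check those labels. All 8 beta cell markers were detected in the islet groups and all 8 hepatocyte markers in the livers. A few libraries stand apart from their groups for several members, and results that rest on them are given with and without them: Clec16a KO HFD replicate 4, Mfn DKO liver replicate 4 and Tfam KO liver replicate 3.

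In control livers Hspd1, Hspa9 and Hspe1 stood above the other members. Per transcript length, control livers held Hspd1 at 495 ± 18.6 TPM (SD, n = 6), Hspa9 at 382 ± 20.7 and Hspe1 at 248 ± 26.8, followed by Lonp1 at 116 ± 2.65. Clpp lay at 88.7 ± 8.31 TPM, Clpx at 70.7 ± 9.56 and Dnaja3 at 70.2 ± 7.57, and the last pair do not differ beyond their spread. The inner-membrane proteases were lowest, with Spg7 at 30.1 ± 1.3 TPM, Yme1l1 at 29.8 ± 2.47, which do not differ beyond their spread, and Afg3l2 at 25.3 ± 1.32. Female Tfam control islets kept Hspd1 (168 ± 41 TPM, SD, n = 5) and Hspa9 (142 ± 22.4) at the top, within each other's spread, then Hspe1 (84.4 ± 14.2), with Dnaja3 (35.0 ± 5.55), Spg7 (28.5 ± 2.79) and Afg3l2 (16.7 ± 2.75) at the bottom. Male Tfam control islets held Hspd1 at 183 ± 75.7 TPM (SD, n = 3), Hspa9 at 167 ± 17.8 and Lonp1 at 46.9 ± 3.52. In the females Clpp stood at 55.8 ± 4.24 TPM, while Clpx (45.0 ± 5.25), Yme1l1 (45.3 ± 6.08) and Lonp1 (43.5 ± 6.11) lay within their spread of each other. Clec16a control islets on RFD held Hspa9 at 106 ± 16.7 TPM (SD, n = 4) but Hspd1 at only 62.6 ± 7.59 and Hspe1 at 20.6 ± 8.70. On HFD these controls held Hspa9 at 109 ± 20.6 TPM (SD, n = 6), Hspd1 at 70.8 ± 16.5, Hspe1 at 20.5 ± 7.82 and Lonp1 at 45.4 ± 4.92. The HSP60 pair thus read lower in Clec16a than in Tfam control islets, where experiment and mouse line cannot be told apart. Levels were not tested between tissues or experiments.

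**Figure D1:**
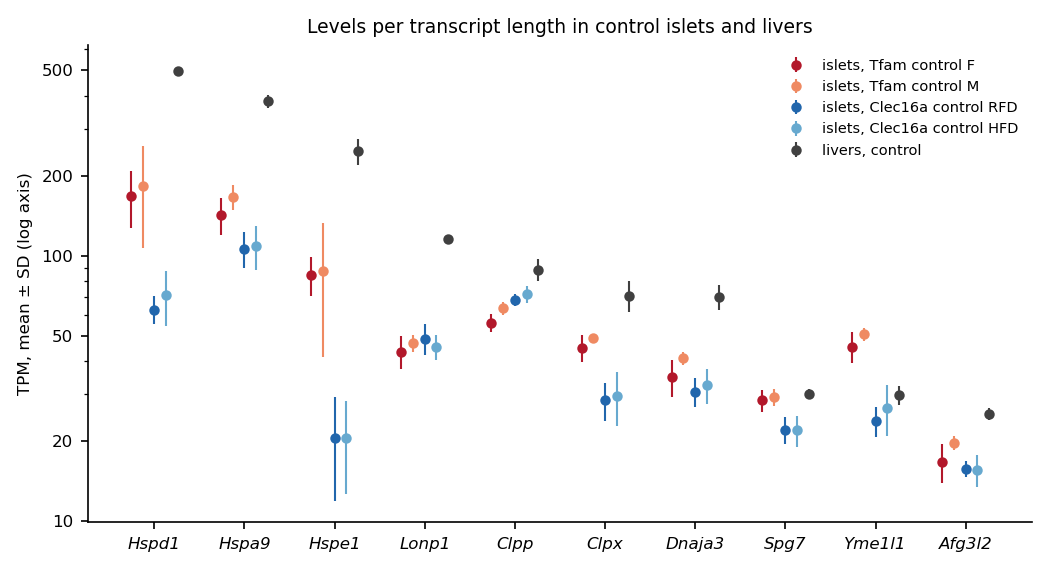
TPM (log axis, mean ± SD over libraries) of the 10 genes in the 5 control groups, ordered by their level in control livers. Hspd1, Hspa9 and Hspe1 lead in livers and in Tfam control islets, while Hspd1 and Hspe1 sit lower in Clec16a control islets.

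In Tfam KO islets Lonp1, Hspa9 and Dnaja3 rose, while the log2 fold changes of the other 7 members lay between -0.18 for Spg7 and 0.26 for Hspd1. Lonp1 rose 3.56-fold, Hspa9 2.77-fold and Dnaja3 1.76-fold over both sexes. Clpp was higher by a small step, 1.14-fold, and its call depended on the processing. The threshold for a call was an adjusted p no higher than 0.05 (edgeR quasi-likelihood F-test, Benjamini-Hochberg over all 19752 genes tested). By that rule 4 of 10 members were called higher and 0 lower, where 11.6% of all genes tested were called higher and 9.29% lower. The members' median log2 fold change was 0.18 against -0.01 over all genes.

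Lonp1 read 89.6, 87.7, 90.3, 86.8 and 95.9 CPM in the 5 female controls and 99.2, 92.9 and 90.8 in the 3 male controls. In Tfam KO islets it read 329, 321, 332 and 321 CPM in the 4 female libraries and 316 and 333 in the 2 male ones. Every KO library lay more than 3-fold above every control, and the spread within each group was a few percent of its level. The log2 fold change was 1.83 ± 0.05 (SE), with an adjusted p of 7.75e-13. The control mean was 91.7 ± 4.19 CPM (SD, n = 8) and that of KO islets 325 ± 7.03 CPM (SD, n = 6).

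Hspa9 read 303, 296, 298, 269 and 283 CPM in female and 359, 325 and 309 CPM in male controls. Its KO values were 825, 783, 944 and 896 CPM in females and 751 and 854 in males, again with no overlap. The log2 fold change was 1.47 ± 0.07 (adjusted p = 5.24e-10). Its J-domain partner Dnaja3 read 66.2, 66.2, 66.0, 59.3 and 65.3 CPM in female controls, 75.8, 75.2 and 70.7 in male controls, 117, 107, 130.3 and 125 in female KO islets and 113 and 121 in male KO islets. The groups did not overlap, and the log2 fold change was 0.81 ± 0.06 (adjusted p = 7.88e-08). Dnaja3 shares 153 exonic bases with Coro7 on the opposite strand and 160 with Vasn on the same strand, and how reads there were assigned is not given in the sources used here.

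The HSP60 pair was not called. Hspd1 read 255, 228, 199, 184 and 178 CPM in female controls and 318, 170.2 and 174 in male controls, against 268, 226, 248 and 253 in female and 304 and 229 in male KO islets. The values overlap, and 1 male control stands above every KO library. Its log2 fold change was 0.26 ± 0.13 (95% interval 0.00 to 0.52, adjusted p = 0.183). The lid Hspe1 gave 0.04 ± 0.16 (95% interval -0.27 to 0.34, adjusted p = 0.902), on a control mean of 59.0 ± 16.8 CPM (SD, n = 8) and a KO mean of 60.6 ± 7.36 CPM (SD, n = 6). Both intervals end below the change of Hspa9.

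Among the Clp pair, the chamber Clpp read 36.3 to 40.5 CPM in KO islets against 30.8 to 38.5 in controls, with overlap, for a log2 fold change of 0.19 ± 0.06 (adjusted p = 0.0249). That call was lost without a filter on low counts (adjusted p = 0.0665). Over both sexes, the number of members called ran from 3 to 5 in 14 fits that left out 1 library, and equalled that of the full fit in 5 of them. Its unfoldase Clpx gave -0.04 ± 0.05 (adjusted p = 0.59), and 0.16 (adjusted p = 0.0254) when libraries were scaled by their totals alone, a scaling that moves the median of all genes to 0.20. Of the inner-membrane proteases, Afg3l2 gave 0.17 ± 0.06 (adjusted p = 0.0584), Yme1l1 -0.13 ± 0.05 (adjusted p = 0.0809) and Spg7 -0.18 ± 0.08 (adjusted p = 0.157). All of them overlapped between the genotypes.

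**Figure D2:**
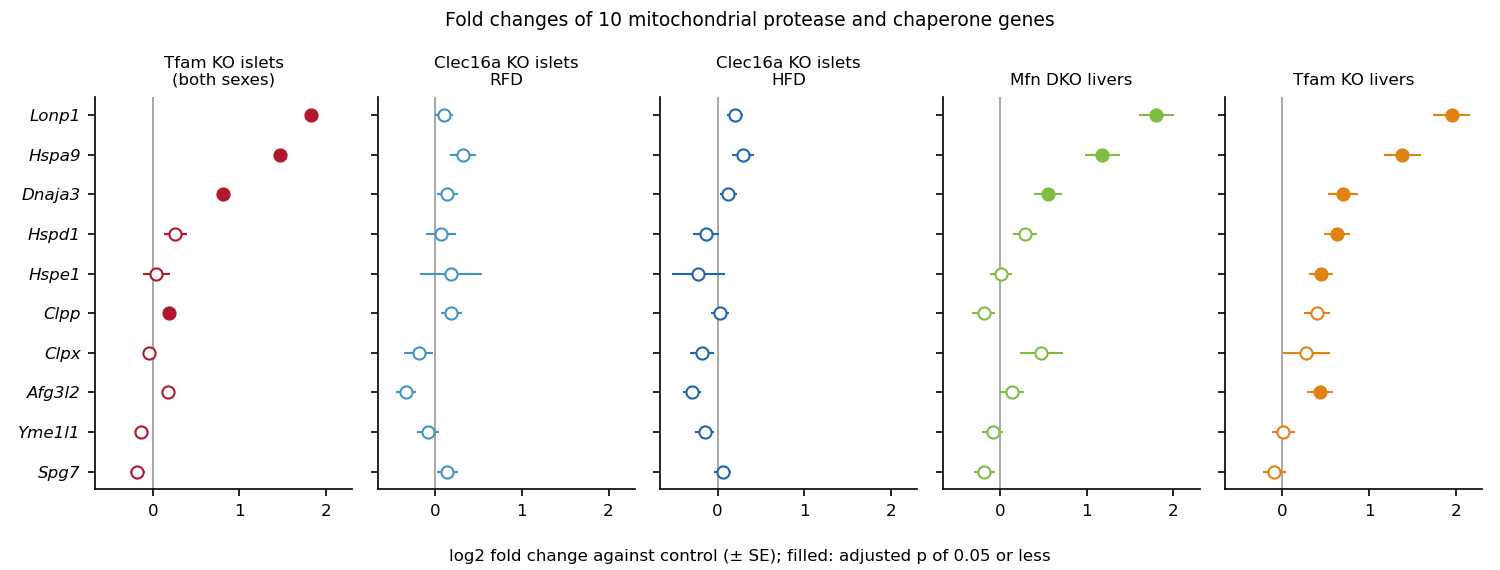
Log2 fold changes against control (points, bars ± SE) of the 10 genes in the 5 comparisons of genotype, filled where the adjusted p was 0.05 or less. Lonp1 and Hspa9 stand farthest right in the Tfam KO islets and both liver panels, and no point is filled in either Clec16a panel.

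Cell type markers moved with genotype in these islets. All 8 of 8 beta cell markers were lower in Tfam KO islets, and their summed level was 105140 to 140850 CPM against 187730 to 293880 in controls. Fewer beta cells and less of this RNA per beta cell cannot be told apart in bulk samples. Of 6 fibroblast markers, 2 were higher, with a summed level of 43.6 to 83.8 CPM against 27.7 to 65.6, so that the ranges overlapped, and no marker of the list was at 0 throughout. The 3 lymphocyte markers summed to 1.72 to 4.86 CPM in KO islets, below the 9.08 to 13.98 CPM of every control, and 1 of the 2 tested was called lower. The part of these shifts in the members' changes was not tested.

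Lonp1, Hspa9 and Dnaja3 were called in each sex. In females, Lonp1 gave 1.85 ± 0.06 (adjusted p = 1.16e-10), Hspa9 1.57 ± 0.08 (5.10e-09) and Dnaja3 0.89 ± 0.07 (4.92e-07), and Clpp passed narrowly at 0.23 ± 0.07 (0.0477). In males, Lonp1 gave 1.78 ± 0.08 (adjusted p = 1.40e-08), Hspa9 1.28 ± 0.11 (2.38e-06) and Dnaja3 0.66 ± 0.09 (3.32e-04). Thus 4 of 10 members were called higher in females, beside 6.67% of all genes, and 3 of 10 in males, beside 5.24%. No member was lower in either sex, beside 4.17% and 3.69% of all genes. The call of Clpp in females was kept in 1 of 9 fits that left out 1 library. The difference between the sexes was called for 0 of 10 members by edgeR and for 0 by DESeq2. In edgeR 1 member had an unadjusted p under 0.05, Hspa9, whose male minus female effect was -0.29 ± 0.13 log2 (adjusted p = 0.778). Over all genes it was called for 0%, with 1230 at an unadjusted p under 0.05 by edgeR and 34 called by DESeq2.

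**Figure D3:**
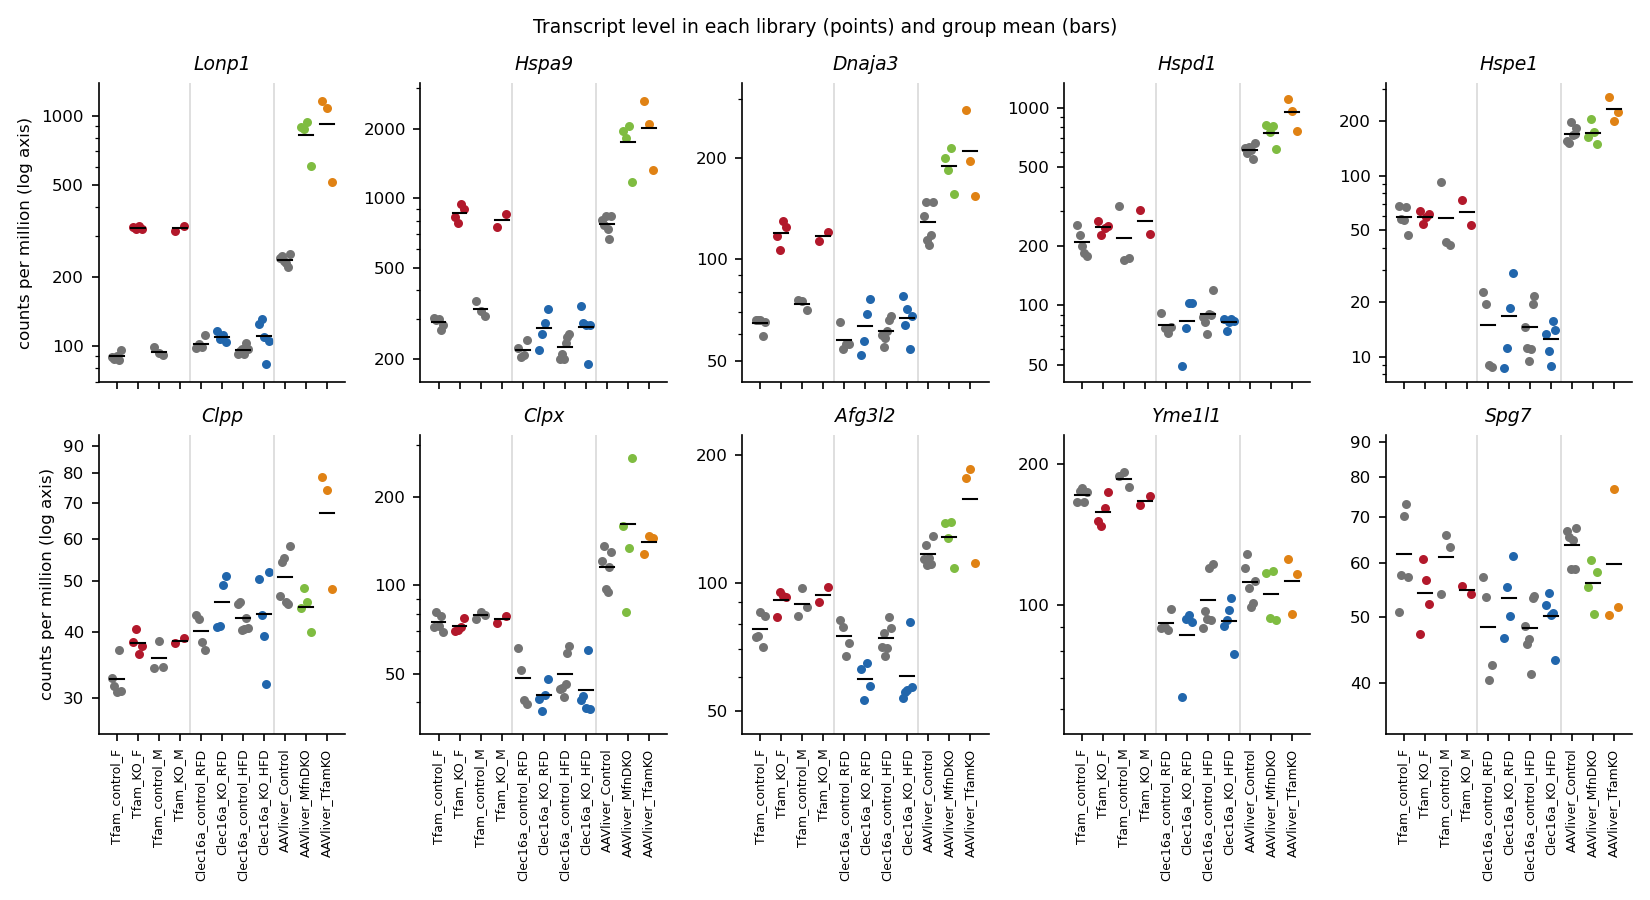
CPM (log axis) of each gene in all 46 libraries (points) with group means (bars), by group. Lonp1 and Hspa9 in Tfam KO islets and in both targeted liver groups lie above every control of the same experiment, whereas Clec16a KO points mix with their controls except for Afg3l2 on RFD.

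Islets labelled Clec16a KO showed no called change of any member on either diet. On RFD, 0 of 10 members were called by edgeR, where 3.99% of all genes were called higher and 3.54% lower. DESeq2 called 0. Unadjusted p-values under 0.05 in edgeR numbered 2, those of Afg3l2 and Hspa9, beside 3866 of all 17254 genes tested. On HFD, 0 of 10 were called by edgeR, where 5.62% of all genes were called higher and 3.95% lower. DESeq2 called 1, Afg3l2. Unadjusted p-values under 0.05 in edgeR numbered 3, those of Afg3l2, Hspa9 and Lonp1, beside 4001 of all 17254 genes tested. Neither count of such p-values is a result about the members. The members' medians were 0.12 on RFD and -0.06 on HFD, against -0.0016 and -0.0019 over all genes.

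Afg3l2, the catalytic subunit of the matrix-facing protease, came nearest to a call. On RFD it read 62.8, 53.0, 64.8 and 57.2 CPM in KO against 81.9, 78.9, 67.3 and 72.3 in control islets, without overlap, for a log2 fold change of -0.34 ± 0.12 (adjusted p = 0.0866). On HFD it read 53.8, 55.4, 55.9, 80.8 and 57.0 CPM in the 5 KO libraries, against 67.4, 73.4 and 83.3 CPM at the lowest, median and highest of the 6 controls. KO replicate 4 lay inside the control range and the other 4 below it, and the log2 fold change was -0.30 ± 0.10 (adjusted p = 0.0699). Its partner Spg7 gave 0.14 ± 0.12 on RFD and 0.06 ± 0.10 on HFD (adjusted p = 0.522 and 0.795).

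Lonp1 read 117, 107, 111 and 103 CPM in KO and 98.0, 101, 98.5 and 111 in control islets on RFD, and the groups overlapped. On HFD it read 125, 131, 109, 83.5 and 105 CPM in KO, against 91.8, 96.1 and 103 CPM at the lowest, median and highest in controls, with KO replicate 4 below all of them. The log2 fold changes were 0.10 ± 0.11 (adjusted p = 0.623) and 0.20 ± 0.09 (adjusted p = 0.177). Hspa9 read 221, 258, 287 and 331 CPM in KO and 224, 204, 209 and 242 in control islets on RFD, with overlap. On HFD it read 341, 288, 282, 191 and 282 CPM in KO and 200.3, 224 and 258 CPM at the lowest, median and highest in controls. Its log2 fold changes were 0.32 ± 0.15 (adjusted p = 0.203) and 0.29 ± 0.13 (adjusted p = 0.162). Its partner Dnaja3 gave 0.14 ± 0.12 (adjusted p = 0.533) and 0.13 ± 0.10 (adjusted p = 0.524). Hspd1 gave 0.07 ± 0.18 and -0.14 ± 0.15, Hspe1 0.18 ± 0.35 and -0.22 ± 0.31, Clpp 0.18 ± 0.12 and 0.02 ± 0.10, Clpx -0.19 ± 0.16 and -0.18 ± 0.14, and Yme1l1 -0.09 ± 0.13 and -0.15 ± 0.11, on RFD and HFD. The smallest adjusted p among these 5 genes was 0.401.

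The HFD result rests on 1 library. Without KO HFD replicate 4, 3 members were called: Lonp1 at 0.29 (adjusted p = 0.00816), Hspa9 at 0.40 (adjusted p = 0.0122) and Afg3l2 at -0.42 (adjusted p = 8.29e-04). That fit called 3369 of 16860 genes in all, against 1652 of 17254 with the replicate. Within sequencing lanes, the mean log2 difference of Afg3l2 on HFD was -0.36 in lane 7 and -0.29 in lane 8, and on RFD -0.39 and -0.40. Lonp1 gave 0.27 and 0.12 on HFD and 0.15 and 0.04 on RFD. Hspa9 gave 0.60 in lane 7 but 0.01 in lane 8 on HFD, and 0.37 and 0.20 on RFD, from 1 to 3 KO libraries a lane and diet. Endothelial markers moved with these groups, all 5 of 5 being called higher on each diet. Their summed level was 569 to 685 CPM in KO against 331 to 369 in control islets on RFD, and 363 to 657 against 314 to 422 on HFD. Other marker sums did not overlap between the RFD groups either. Lymphocyte markers summed to 2.40 to 4.46 CPM in KO against 8.79 to 18.3 in control islets, macrophage markers to 109 to 151 against 161 to 190.1 and sinusoidal endothelial markers to 6.68 to 13.04 against 15.9 to 25.9, each with 1 marker called lower. Fibroblast markers were higher, at 54.3 to 99.1 against 41.9 to 53.1 CPM, with 2 of 6 called on RFD and 4 of 6 on HFD. On HFD the medians of these 4 sums lay on the same sides, but the ranges overlapped. Their part in the members' values was not tested.

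Diet made no called difference to the members. HFD against RFD was called for 0 of 10 in control islets, beside 0.0406% of all genes, and for 0 of 10 in KO islets, beside 0.0116%. The KO effect on HFD minus that on RFD was called for 0 of 10 by edgeR, and for 0% of all genes, 406 genes having an unadjusted p under 0.05 and 21 being called by DESeq2. In these 3 comparisons 0 members had an unadjusted p under 0.05 in edgeR and 0 were called by DESeq2. For the diet effect, 973 of 17254 genes in control and 946 in KO islets had such a p in edgeR. The widest value was that of Hspe1, -0.45 ± 0.34 in KO islets (95% interval -1.11 to 0.22, adjusted p = 1), whose level in these islets was only 8.69 to 28.9 CPM.

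The effects of Tfam and Clec16a loss on these genes differed in size when fitted together. The Tfam KO effect minus the Clec16a KO effect was 1.64 ± 0.09 log2 for Lonp1 (adjusted p = 5.20e-14), 1.09 ± 0.13 for Hspa9 (7.38e-07), 0.62 ± 0.11 for Dnaja3 (1.31e-04) and 0.44 ± 0.11 for Afg3l2 (0.00452). So 4 of 10 members were called, all in the direction of Tfam KO, where 16.3% of 19909 genes were called in either direction. For Afg3l2 the difference joins a Tfam KO value of 0.17 and Clec16a KO values of -0.34 and -0.30, none of them called alone. The targeted gene and the experiment cannot be told apart in this comparison. Sex differed too. All 19 Clec16a libraries read as female, with Xist, the transcript of the inactive X chromosome, at 8.09 to 8.92 log2 CPM. They held 0 counts of the Y-linked Ddx3y. The Tfam effect is a mean over both sexes, and the part of sex in the difference was not tested.

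In livers labelled Mfn DKO, Lonp1, Hspa9 and Dnaja3 were called higher than in controls, and in livers labelled Tfam KO these and Hspd1, Hspe1 and Afg3l2 were. Lonp1 stood 3.496-fold and 3.87-fold above control, and Hspa9 2.27-fold and 2.61-fold. In Mfn DKO livers, 3 of 10 members were called higher, beside 5.23% of all genes, and 0 lower, beside 4.64%. In Tfam KO livers, 6 of 10 were called higher, beside 18.1%, and 0 lower, beside 11.3%. The members' medians were 0.21 and 0.44, against 0.02 and 0.03 over all genes. Both comparisons use the same 6 control livers.

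Lonp1 in control livers lay at 221, 237 and 252 CPM at the lowest, median and highest. It read 889.9, 873, 944 and 607 in the 4 Mfn DKO livers and 1156, 1083 and 513 in the 3 Tfam KO livers. Every targeted liver stood more than 2-fold above every control, with Mfn DKO replicate 4 and Tfam KO replicate 3 lowest of their groups. Log2 fold changes were 1.81 ± 0.20 (adjusted p = 4.21e-04) and 1.95 ± 0.22 (adjusted p = 2.28e-04). Without those replicates they were 1.91 (adjusted p = 6.16e-04) and 2.22 (adjusted p = 1.51e-06).

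Hspa9 lay at 667, 782 and 836 CPM at the lowest, median and highest in control livers. It read 1964, 1822, 2049 and 1172 in Mfn DKO and 2630.2, 2104 and 1327 in Tfam KO livers, with no overlap with controls. Log2 fold changes were 1.18 ± 0.20 (adjusted p = 0.00456) and 1.39 ± 0.22 (adjusted p = 0.00139), and without the lowest replicate of each group 1.32 (adjusted p = 0.0039) and 1.60 (adjusted p = 6.91e-05). Dnaja3 lay at 110.3, 126 and 148 CPM at the lowest, median and highest in controls, 199, 184, 215 and 157 in Mfn DKO and 278, 196 and 154 in Tfam KO livers. Its log2 fold change in Mfn DKO, 0.55 ± 0.16 (adjusted p = 0.0494), sat at the threshold, and 0 of 10 fits that left out 1 library kept the call. Those fits gave adjusted p-values from 0.0635 to 0.13. In Tfam KO livers it was 0.70 ± 0.18 (adjusted p = 0.0117), and 0.86 (adjusted p = 0.00183) without replicate 3. Dnaja3 stood above every control in each targeted liver, by a narrow margin in the lowest replicates.

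The HSP60 pair rose in Tfam KO livers. Hspd1 lay at 552, 621 and 664 CPM at the lowest, median and highest in controls and read 1113, 967 and 765 in Tfam KO livers, all above the controls, for a log2 fold change of 0.63 ± 0.15 (adjusted p = 0.00905). Hspe1 lay at 152, 169 and 197 CPM at the lowest, median and highest in controls and read 270.1, 201 and 225 in Tfam KO livers, for 0.44 ± 0.14 (adjusted p = 0.0286). In Mfn DKO livers Hspd1 read 815, 755, 808 and 616 CPM, with replicate 4 inside the control range, and its change of 0.29 ± 0.14 was not called (adjusted p = 0.196). Hspe1 read 162, 204, 173 and 149.9 CPM there, for 0.01 ± 0.13 (95% interval -0.23 to 0.26). The Hspe1 call in Tfam KO livers was kept in 5 of 9 fits that left out 1 library, and that of Hspd1 in 8 of 9. Without replicate 3 they stood at 0.45 (adjusted p = 0.0329) and 0.74 (adjusted p = 0.00147), and without replicate 1 at 0.32 (adjusted p = 0.146) and 0.50 (adjusted p = 0.0535).

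Afg3l2 read 177, 186 and 111 CPM in Tfam KO livers, against 111, 114 and 129 CPM at the lowest, median and highest in controls. It overlapped through replicate 3, and its call at 0.43 ± 0.15 (adjusted p = 0.0455) was kept in 1 of 9 fits that left out 1 library, the fit without replicate 3 giving 0.61 (adjusted p = 0.00144). Clpp missed the threshold there at 0.40 ± 0.15 (adjusted p = 0.0543), and gave -0.19 ± 0.14 in Mfn DKO livers (adjusted p = 0.389). Clpx read 159, 81.2, 134 and 271 CPM in Mfn DKO livers, where replicate 4 alone stood high, and its change of 0.48 ± 0.25 was not called (adjusted p = 0.23), nor was 0.09 (adjusted p = 0.821) without that replicate. In Tfam KO livers Clpx gave 0.27 ± 0.27 (adjusted p = 0.47). Yme1l1 gave -0.08 ± 0.12 and 0.01 ± 0.13, and Spg7 -0.18 ± 0.12 and -0.09 ± 0.13, in Mfn DKO and Tfam KO livers, with adjusted p-values of 0.692, 0.967, 0.348 and 0.623. The number of members called in Tfam KO livers was 7 without its replicate 3, Lonp1, Clpp, Hspd1, Hspe1, Hspa9, Dnaja3 and Afg3l2, and 2 without its replicate 1, Lonp1 and Hspa9. Over all genes those fits called 7330 of 17552 and 3339 of 17488, against 4992 of 17024 with all libraries.

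Markers of liver cell types and of dividing cells moved with genotype as well. All 4 markers of dividing cells were higher in both targeted groups, at a summed 22 to 55.9 CPM in Mfn DKO and 14.9 to 19.8 in Tfam KO livers against 4.12 to 9.71 in controls. Of 8 hepatocyte markers, 4 were lower in Tfam KO livers, with a sum of 21742 to 95312 CPM against 93675 to 136030. In Mfn DKO livers the same sum was 78891 to 98741 CPM, overlapping the controls, with 1 marker higher and 0 lower. Fewer hepatocytes and less of this RNA per hepatocyte cannot be told apart in bulk samples, and marker RNA alone does not show division. What part these shifts had in the members' changes was not tested. Livers also fell into libraries with high and low Xist, the transcript of the inactive X chromosome, and the rise of Lonp1 was seen within each. The mean log2 difference in Mfn DKO was 1.67 among high and 1.90 among low libraries, and in Tfam KO 1.71 and 2.24, where the high and low libraries numbered 2 and 2 in Mfn DKO and 2 and 1 in Tfam KO. Hspa9 gave 0.98 and 1.33 in Mfn DKO and 1.17 and 1.72 in Tfam KO livers.

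Set directly against Mfn DKO livers, Tfam KO livers differed in 0 of 10 members by edgeR, beside 0.106% of all genes higher and 0.188% lower. Here 2 members had an unadjusted p under 0.05 in edgeR, beside 3480 of 17024 genes, which is no result about the members. DESeq2 called 1 member, Clpp, and the shares above are those of edgeR only. The widest differences were Clpp at 0.59 ± 0.16 (adjusted p = 0.101) and Hspe1 at 0.43 ± 0.15 (adjusted p = 0.144). Without Tfam KO replicate 3, 3 members were called, Clpp, Hspd1 and Afg3l2, in a fit that called 4204 of 17552 genes, against 50 of 17024 with that library. A response of Hspe1 in one targeted liver and not in the other is therefore not shown to differ by this test. The Tfam KO effect in islets minus that in livers was called for 0 of 10 members by edgeR, beside 19.7% of 21283 genes. In edgeR 0 members had an unadjusted p under 0.05, beside 6909 of all genes, and DESeq2 called 0 members. Values ran from -0.37 for Hspe1 to 0.09 for Dnaja3. Without Tfam KO liver replicate 3, 3 members were called, all with the larger rise in livers: Lonp1 at -0.41 (adjusted p = 0.0345), Clpp at -0.41 (adjusted p = 0.0181) and Afg3l2 at -0.47 (adjusted p = 0.00658). That fit called 6609 of 21239 genes. Tissue and experiment cannot be told apart in this comparison.

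**Figure D4:**
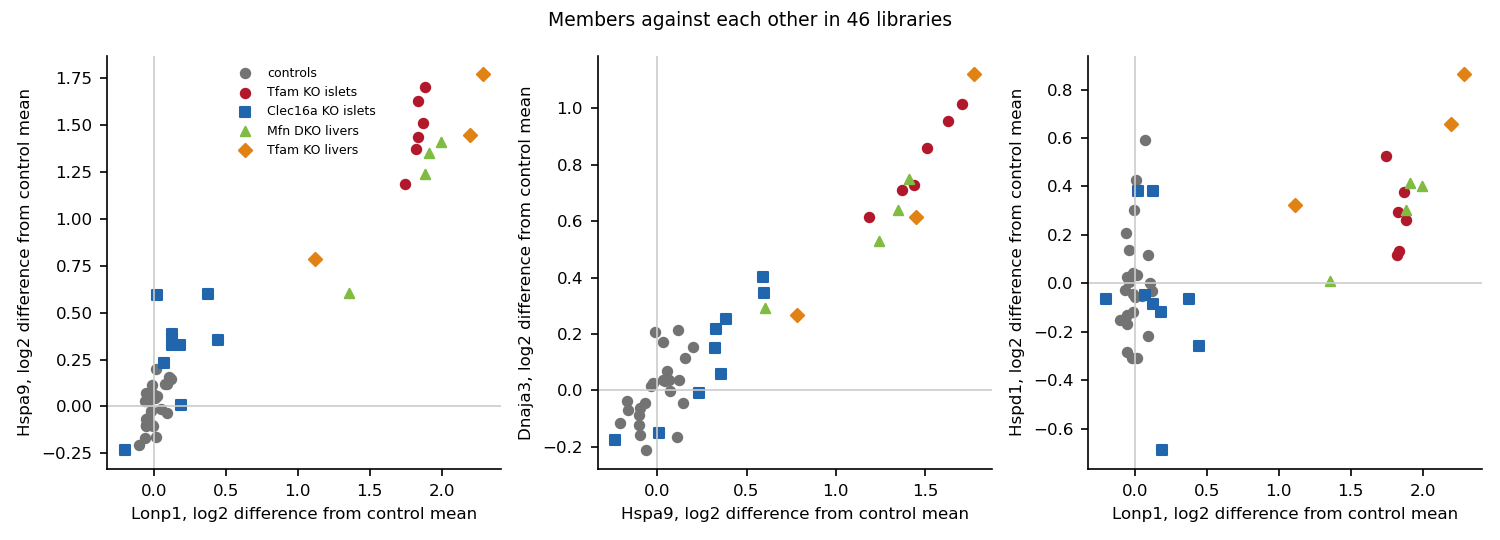
Each of the 46 libraries as its log2 difference from the mean of the matching controls, for Lonp1 against Hspa9, Hspa9 against Dnaja3 and Lonp1 against Hspd1. Hspa9 and Dnaja3 line up in all experiments, whereas Hspd1 varies among control islets in which Lonp1 hardly moves.

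Members also varied together among libraries of the same group. After the group mean of log2 CPM was removed, 45 pairs were correlated over 46 libraries, which share their depth and scaling within a library. By permutation, 12 pairs had an adjusted p of 0.05 or less for r, all of them positive over the 46 libraries. Within the Tfam islets alone 3 of these pairs turned negative, Lonp1 with Clpp (0.62 over all libraries and -0.465 there), Clpp with Hspa9 (0.641 and -0.495) and Clpp with Dnaja3 (0.601 and -0.588). Hspa9 and its partner Dnaja3 gave the highest value, with Pearson's r = 0.845 and Spearman's rho = 0.763 (permutation p = 1e-05 for r, the smallest that 100000 permutations can give, with an adjusted p of 1.12e-04 for r and 1.12e-04 for rho). Without the 2 libraries farthest from the median of Hspa9, r was 0.811, and within the Tfam islets, Clec16a islets and livers it was 0.898, 0.872 and 0.82. Hspd1 and Hspe1 gave r = 0.739 and rho = 0.7 (adjusted permutation p = 1.12e-04 and 1.12e-04), 0.665 without the 2 farthest libraries, and 0.907, 0.753 and 0.446 within the experiments. Lonp1 and Hspa9 gave r = 0.789 and rho = 0.646 (adjusted permutation p = 1.12e-04 and 1.12e-04), 0.707 without the 2 farthest libraries, and 0.517, 0.576 and 0.935 within the experiments. For Lonp1 and Afg3l2, r fell from 0.437 to 0.116 without the 2 farthest libraries, so the value over all libraries rests on those 2. Within the Tfam islets, Clec16a islets and livers it was 0.242, -0.517 and 0.964, so the experiments differed widely.

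The promoter of Lonp1 is shown because that gene rose most among the members in Tfam KO islets, and the promoter of Hspe1 because it lies against that of Hspd1, with which Hspe1 varied. Of the 10 members, 8 had an entry among the RefSeq promoters on GRCm38.p6. Hspa9 and Afg3l2 had none, so their promoters were not searched. Hspd1 (chromosome 1 from 55077835 to 55088243, minus strand) and Hspe1 (chromosome 1 from 55088132 to 55091307, plus strand) lie head to head and share 112 exonic bases, and the Hspe1 window lies between the RefSeq start sites of Hspd1. How reads in those bases were assigned is not given in the sources used here. Each window below runs 5′ to 3′ on the gene's own strand, from 200 bases before the start site through the first 10 bases of the transcript. Capitals mark a match to TGACGTNA, a cyclic AMP response element-like motif, in Lonp1 (chr17:56626894-56627103, minus strand), and 2 overlapping matches to TTCNNGAANNTTC, a heat shock element, or its reverse complement GAANNTTCNNGAA, in Hspe1 (chr1:55087948-55088157, plus strand). Capitals near the 5′ end of the Hspe1 window mark TGCAAT, a C/EBP motif.
Lonp1: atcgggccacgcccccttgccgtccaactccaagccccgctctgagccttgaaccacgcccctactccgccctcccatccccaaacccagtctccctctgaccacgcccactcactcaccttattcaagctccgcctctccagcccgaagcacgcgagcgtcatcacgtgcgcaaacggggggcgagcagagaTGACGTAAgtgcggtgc
Hspe1: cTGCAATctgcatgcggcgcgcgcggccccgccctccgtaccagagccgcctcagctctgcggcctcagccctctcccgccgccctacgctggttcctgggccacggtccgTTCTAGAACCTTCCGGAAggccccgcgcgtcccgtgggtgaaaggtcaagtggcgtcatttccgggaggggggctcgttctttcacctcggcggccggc
The Lonp1 match begins 7 bases before the start site and spans it. The heat shock element matches of Hspe1 begin 89 and 84 bases before its start site, and 2 matches to the ETS motif CCGGAAG, at 80 and 77 bases before it, overlap them. Both strands were searched in windows of 250 bases before and 50 after each start site, and 2.95% of 32544 such mouse windows held TGACGTNA and 0.608% the heat shock element. TGCAAT was in 8.36% and CCGGAAG in 8.91% of windows. TGATGNAA, the composite of a C/EBP and an ATF site, was in 3.91% of windows and in none of the windows of the 8 members searched, which leave out Hspa9 and Afg3l2. A match is a description of letters and shows no binding.

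Genes with neighbouring roles were read from lists compiled with earlier results of these data known. Their counts are to be read beside the shares of all genes called, which were 11.6% higher and 9.29% lower in Tfam KO islets, 3.99% higher and 3.54% lower on RFD and 5.62% higher and 3.95% lower on HFD in Clec16a KO islets, 5.23% higher and 4.64% lower in Mfn DKO livers and 18.1% higher and 11.3% lower in Tfam KO livers. A count of 1 in a list of 14 to 16 genes is near or below these shares and is no result about that list. The same holds in Tfam KO livers for 3 called higher of 14 and for 2 called higher of 16. Of 14 other mitochondrial proteases, 3 were called higher and 1 lower (median log2 fold change 0.07) in Tfam KO islets. Pitrm1, which degrades cleaved presequences, was higher in Tfam KO islets (0.48 ± 0.06, adjusted p = 4.73e-05), Mfn DKO livers (0.57 ± 0.16, 0.0411) and Tfam KO livers (1.15 ± 0.17, 0.00109). Metap1d, which removes the first methionine, was lower in Mfn DKO livers (-0.37 ± 0.10, adjusted p = 0.0348) and Tfam KO livers (-0.47 ± 0.11, 0.00851), as was the rhomboid protease Parl in Mfn DKO livers (-0.48 ± 0.10, 0.0141). In those livers the list counted 1 higher and 2 lower, in Tfam KO livers 1 and 3, and in Clec16a KO islets 0 and 0 on both diets. Medians of the list were -0.20 in Mfn DKO livers, -0.15 in Tfam KO livers, and -0.04 and -0.07 in Clec16a KO islets on RFD and HFD.

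Of 16 other mitochondrial chaperones, co-chaperones and scaffolds, 8 were called higher and 0 lower (median log2 fold change 0.16) in Tfam KO islets. Hscb, a co-chaperone of iron-sulfur cluster transfer, rose by 0.74 ± 0.10 log2 (adjusted p = 5.93e-05), the disaggregase Clpb by 0.31 ± 0.05 (3.74e-04) and Dnlz, which keeps Hspa9 soluble, by 0.33 ± 0.06 (8.15e-04). Dnlz was the member of the list called on both diets in Clec16a KO islets, at 0.45 ± 0.12 on RFD (adjusted p = 0.0256) and 0.45 ± 0.10 on HFD (0.00888). Grpel2, a nucleotide exchange factor of Hspa9, was lower in Clec16a KO islets on RFD (-0.44 ± 0.12, adjusted p = 0.0328) and higher in Mfn DKO (0.52 ± 0.15, 0.0432) and Tfam KO livers (0.82 ± 0.16, 0.00365). Clpb was higher in both, at 0.57 ± 0.13 (adjusted p = 0.0209) and 0.76 ± 0.14 (0.00321), and Dnajc28 lower, at -0.86 ± 0.21 (0.0256) and -1.09 ± 0.24 (0.00636). The list counted 2 higher and 1 lower in Mfn DKO livers and 2 and 1 in Tfam KO livers, with medians of -0.09 and 0.18. In Clec16a KO islets it counted 1 and 1 on RFD and 1 and 0 on HFD, with medians of 0.15 and -0.04.

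Among 6 transcription factors tied to the mitochondrial unfolded protein response, 5 were called higher and 0 lower (median log2 fold change 1.05) in Tfam KO islets, led by Ddit3 (2.80 ± 0.14, adjusted p = 1.21e-09), Cebpb (1.64 ± 0.11, 2.03e-08) and Atf5 (1.14 ± 0.11, 2.73e-06). The same list was called higher for 4 of 6 in Clec16a KO islets on RFD and 4 of 6 on HFD, with medians of 0.70 and 0.72, while none of the 10 proteases and chaperones above was called there. On RFD Cebpb gave 1.58 ± 0.28 (adjusted p = 0.00385), and on HFD Atf4 gave 0.72 ± 0.14 (0.00347). In livers 3 of 6 were called higher in Mfn DKO, led by Atf5 (2.22 ± 0.30, adjusted p = 0.00123), and 4 of 6 in Tfam KO, led by Ddit3 (3.15 ± 0.43, 8.38e-04). Medians were 0.47 and 0.82. Hsf1, the factor that binds heat shock elements, was singled out after its values were seen and gave -0.02 in Tfam KO islets, -0.07 and -0.17 in Clec16a KO islets on RFD and HFD, and 0.01 and 0.07 in Mfn DKO and Tfam KO livers, and was called in none of them.

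Chaperones of other compartments were read beside these. Of 14 endoplasmic reticulum chaperones, 0 were called higher and 5 lower (median log2 fold change -0.29) in Tfam KO islets, among them Dnajb9 (-0.77 ± 0.08, adjusted p = 3.98e-06), Manf (-0.66 ± 0.12, 8.57e-04) and Dnajc3 (-0.43 ± 0.09, 0.00236). The list counted 0 called on either diet in Clec16a KO islets and in Mfn DKO livers, and 1 lower in Tfam KO livers, Pdia4 (-0.67 ± 0.22, 0.0374), with medians of 0.29, 0.22, -0.43 and -0.39. Of 15 cytosolic chaperones, 1 was called higher and 0 lower (median log2 fold change 0.04) in Tfam KO islets, namely Cct2, a subunit of the cytosolic chaperonin (0.21 ± 0.07, 0.0378). In Tfam KO livers 4 were higher and 3 lower, with the small heat shock protein Hspb1 at 1.58 ± 0.28 (adjusted p = 0.00238), Cct2 at 0.89 ± 0.18 (0.00477) and the HSP70 partner Dnaja1 at -0.90 ± 0.21 (0.00767). In Mfn DKO livers 2 were lower, Bag3 and Dnaja1, on RFD 1 was higher, Hspb1, and on HFD 0 were called. Medians of this list were 0.24, -0.04, -0.15 and 0.30 on RFD, on HFD, in Mfn DKO and in Tfam KO livers. Of 14 nuclear genes for other mitochondrial proteins, 3 were called higher and 0 lower (median log2 fold change 0.12) in Tfam KO islets, led by the outer-membrane channel Vdac3 (1.21 ± 0.07, adjusted p = 5.14e-09). Its counts elsewhere were 1 lower on RFD and 2 lower on HFD, Vdac1 being one on each diet (-0.50 ± 0.11, 0.00941 and -0.56 ± 0.09, 0.00124), 1 higher in Mfn DKO and 3 higher in Tfam KO livers, where Mdh2, a citric acid cycle enzyme, rose by 1.21 ± 0.22 (0.00259). Medians of that list were 0.00, -0.08, -0.14 and 0.12 in the same order.

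**Figure D5:**
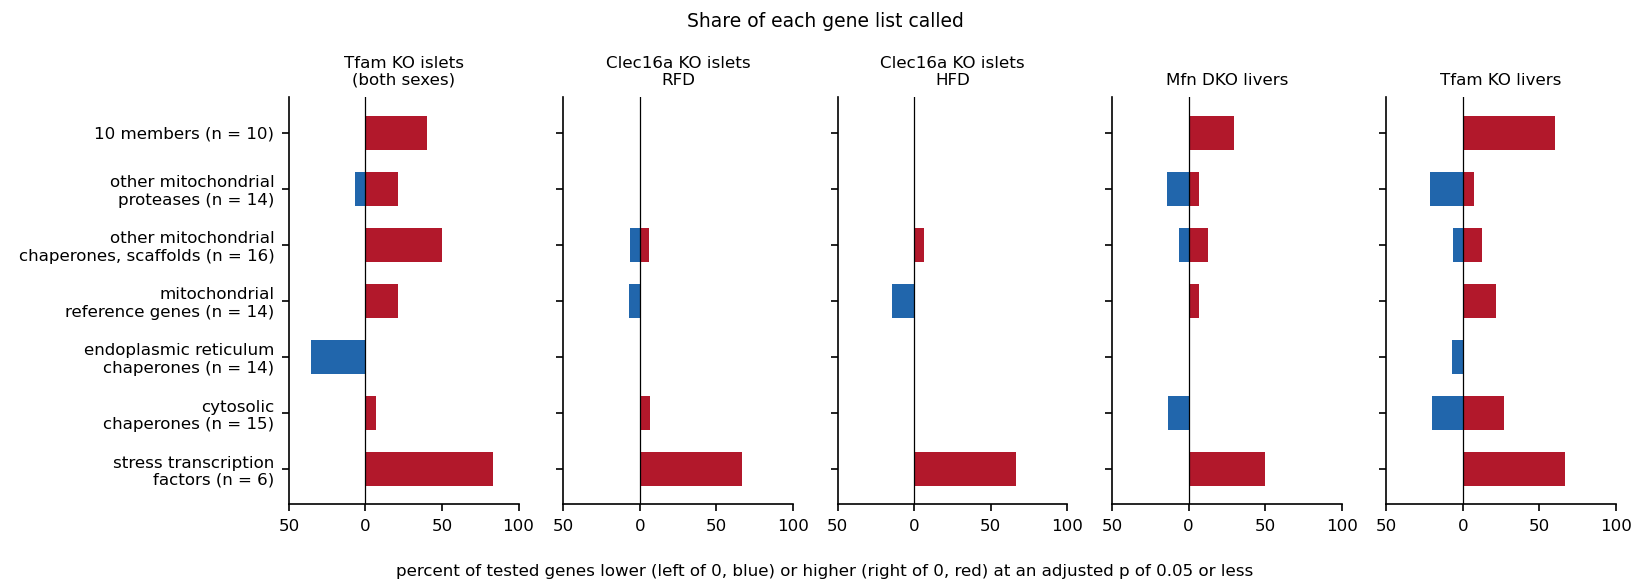
Percent of the tested genes of each list higher (right of 0) or lower (left of 0) by an adjusted p no higher than 0.05, by comparison. The 10 genes show bars to the right in Tfam KO islets (4 of 10), Mfn DKO livers (3 of 10) and Tfam KO livers (6 of 10) and none in Clec16a KO islets, where the transcription factors still reach 4 of 6.

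Genes that ran closest to Lonp1 were ranked over all 46 libraries by the correlation of their log2 differences from matching controls, among 14503 genes. Hspa9 came first (r = 0.96), followed by Cyb5r1, a cytochrome b5 reductase (0.96), Vmn2r3, a vomeronasal receptor gene (0.94), the cell adhesion gene L1cam (0.93) and the stress-induced Nupr1 (0.93). Libraries of a group share their genotype, so these values carry no p. Cyb5r1 changed by 2.17 ± 0.07 log2 in Tfam KO islets, 2.18 ± 0.31 in Mfn DKO livers and 3.39 ± 0.33 in Tfam KO livers. Unlike Lonp1 it was also called in Clec16a KO islets, at 0.59 ± 0.13 on RFD (adjusted p = 0.00917) and 0.64 ± 0.11 on HFD (0.00129), and whether the genes differ in that was not tested. Closest to Hspd1 were Zfp180, a zinc finger gene (r = 0.89), Ipo7, a nuclear import receptor (0.88), and Fxr1, an RNA-binding protein (0.87). Ipo7 was called in Tfam KO islets (0.34 ± 0.09, adjusted p = 0.00966), Mfn DKO livers (0.52 ± 0.13, 0.0318) and Tfam KO livers (0.78 ± 0.15, 0.00301).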

How the data were processed

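Total RNA was sequenced as paired ends from overnight-cultured islets and flash-frozen livers, per the labels' protocols. Per the file headers, the authors deposited raw counts, TPM and CPM for 55487 genes in each library. The deposited counts held only whole numbers and entered the tests unchanged. The deposited CPM equalled count over library total and was replaced by CPM on TMM-scaled totals. The authors' TPM (per union of exon lengths for the members) was used only for levels in controls. STAR 2.6.1b, RSEM 1.3.1, featureCounts and GRCm38 are named, without their roles, per the submitters' processing notes. Positions are from GENCODE M21, which held 55141 of the identifiers.

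Each experiment was fitted alone with edgeR 4.0.16 in R 4.3.3 (TMM, filterByExpr, quasi-likelihood F-test, Benjamini-Hochberg over all genes, called at 0.05), with sex as an additive term for both sexes together and 1 mean per group otherwise. The 2 comparisons across experiments used joint fits. In all there were 14 comparisons. Standard errors are the size of the log2 change over the square root of F. All 10 genes passed the filter on low counts in every fit. Scripts were tested on simulated counts. No replicate pair of 81 was identical. Clec16a control RFD replicates 3 and 4 were closest, at a chi-square per gene of 9.83 against 46.2 to 196.6 for the other pairs of that group. Next were Tfam control female replicates 1 and 2, at 12.8 against 83.5 to 266.1. Whether these pairs came from separate animals is not known. The members and lists were chosen with earlier results of these data known. Named genes were all members, the targeted genes, up to 3 genes of each list by adjusted p per comparison, and the nearest genes in pattern (5 for Lonp1, 3 for Hspd1). Reads carry no molecular identifiers. Alternatives included DESeq2 1.42.0, no filter on low counts, other scalings, covariates and leaving out each library.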

Additional observations from a re-analysis of the deposited data

Results flagged for a closer look

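Some libraries stood far from the rest of their group in a member's CPM, by Dixon's test in groups of 4 to 10. Clpx read 60.3 CPM in Clec16a KO HFD replicate 4, against 38.0 to 42.2 in the others of its group. Hspd1 read 74.3 CPM in Clec16a KO HFD replicate 2, against 82.1 to 85.1 in the others of its group. Dnaja3 read 59.3 CPM in Tfam control female replicate 4, against 65.3 to 66.2 in the others of its group. Dnaja3 read 65.0 CPM in Clec16a control RFD replicate 1, against 54.3 to 56.0 in the others of its group. Yme1l1 read 98.4 CPM in Clec16a control RFD replicate 4, against 88.6 to 89.96 in the others of its group. Yme1l1 read 63.8 CPM in Clec16a KO RFD replicate 1, against 92.1 to 95.4 in the others of its group. Afg3l2 read 80.8 CPM in Clec16a KO HFD replicate 4, against 53.8 to 57.0 in the others of its group. These are 7 of 80 checks, and chance alone is expected to mark about 1 in 20. Of the 7, 2 are of Clec16a KO HFD replicate 4, the library without which Lonp1, Hspa9 and Afg3l2 were called on HFD.

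The Tfam KO effect differed from the Clec16a KO effect in islets, by the interaction term of a joint fit in edgeR. The difference was 1.64 log2 for Lonp1, 1.09 log2 for Hspa9, 0.62 log2 for Dnaja3 and 0.44 log2 for Afg3l2, with the Tfam KO effect the higher in each. Targeted gene and experiment cannot be told apart in it, and it sets a Tfam effect over both sexes against Clec16a libraries that all read as female.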

How the results depend on the processing

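Of 2920 recomputed member fold changes, 2823 kept their side of the threshold, 55 lost a call, 41 gained one and 1 turned and was called. Among the 2823, 184 changed sign but were called in neither fit. The turned one was Clpx in Tfam KO islets, at 0.16 with library totals in place of TMM, an alternative chosen after seeing the data. That scaling called 7 members in Tfam KO islets, 1 on HFD, 2 in Tfam KO against Mfn DKO livers and 2 in islets minus livers. It moved the median of all genes to 0.20, 0.12, 0.21 and 0.46 in Tfam KO islets, Clec16a KO islets on HFD, Mfn DKO and Tfam KO livers. Over all genes it called 6208 higher and 617 lower in place of 2285 and 1834 for Tfam KO islets, 4444 higher and 322 lower in place of 1318 and 824 for females, 2860 higher and 309 lower in place of 1035 and 729 for males, 1775 higher and 352 lower in place of 970 and 682 for Clec16a KO on HFD, 1653 higher and 356 lower in place of 891 and 790 for Mfn DKO livers, 7250 higher and 904 lower in place of 3073 and 1919 for Tfam KO livers, 1140 higher and 86 lower in place of 18 and 32 for Tfam KO against Mfn DKO livers, 1125 higher and 4253 lower in place of 1642 and 2549 for islets minus livers, 2818 higher and 944 lower in place of 1508 and 1735 for Tfam minus Clec16a effects. DESeq2's Wald test called 1 member on HFD, Afg3l2, and 1 in Tfam KO against Mfn DKO livers. Same-numbered replicates did not deviate together (median correlations of 0.0653, -0.0163 and 0.0873 by experiment), so the numbers were not taken as pairs. With the replicate block, 1 member was called in Mfn DKO and 1 in Tfam KO livers, Lonp1 in both, where 169 and 395 of 17024 genes were called, and Hspa9 and Dnaja3 in both and Hspd1, Hspe1 and Afg3l2 in Tfam KO lost their calls. Leaving out each library in turn gave 3 to 5 called members in Tfam KO islets, 3 to 4 in females, 3 to 5 in males, 0 to 3 on HFD (3 without KO HFD replicate 4), 2 in every fit in Mfn DKO livers, 2 to 7 in Tfam KO livers (2 without its replicate 1, 7 without its replicate 3), 0 to 3 in Tfam KO against Mfn DKO livers and 0 to 3 in islets minus livers (3 in each without Tfam KO liver replicate 3). The other counts were constant. The number of all genes called in the fits named here moved too, as given above. These ranges are therefore no result about the members alone. The cause of the moves was not tested. Groups of 2 to 6 libraries limit the precision, and the lowest count of a member in any library was 152.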
